A study of Mus musculus with 4 samples.

Results

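Integrins, laminins and the proteins that anchor cells to the basement membrane were followed across whole skin of mice with and without K5-Cre. The group holds every transcript cluster (a set of array probes along the exons of a gene) whose gene symbol starts with Itga or Itgb, apart from the Itgb1bp and Itgb3bp genes, or is Lama, Lamb or Lamc with a digit, together with Fras1, Frem1, Frem2, Nid1, Nid2, Hspg2, Dst, Plec and Cd151. Collagens were left out. The rule found 48 clusters of 47 genes among 21789 clusters with 1 gene symbol. Another 3 clusters, whose annotation joins Itgam with the ribosomal protein gene Rpl35, were not used. The genes were divided by where they are best known to be made into 17 epidermal, 19 stromal and 11 leukocyte and platelet members. This division is not strict, since Itgb1, Itgav, Itgb5, Itga5, Dst and Plec are made by many cell types and Frem1 mainly by dermal cells.

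Total RNA of skin from C57BL/6 mice was hybridised to 4 Affymetrix mouse gene arrays in 2 groups. All samples are labelled Tnfrsf1a+/-, so that every animal carried a single functional copy of the gene for the TNF receptor TNFR1. In the group without K5-Cre, replicate 1 has the genotype CflarF/+;Tnfrsf1a+/- and for replicate 3 it is CflarF/F;Tnfrsf1a+/-. Replicates 2 and 6 form the K5-Cre group. Their genotype is given as CflarF/F;K5-Cre;Tnfrsf1a+/-, in which floxed Cflar, encoding the cell death inhibitor cFLIP, can be deleted where the keratin 5 promoter drives Cre, as it does in basal keratinocytes. The labels state no treatment, age, sex, body site or batch, nor whether a sample was 1 animal or a pool, so the p-values cover only the variation among these samples, possibly technical. The study's question was which genes might hold back epidermal differentiation and keratinocyte proliferation.

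Integrins are receptors made of an alpha and a beta chain that bind matrix or other cells and connect them to the cytoskeleton. In epidermis, the chains encoded by Itga6 and Itgb4 form the core of the hemidesmosome, which plectin (Plec) and dystonin (Dst) tie to keratin filaments and which holds on to laminin in the basement membrane below. Laminins are trimers of an alpha, a beta and a gamma chain, and nidogens and perlecan join the laminin sheet to the collagen network. Leukocytes use a separate set, built around the chains encoded by Itgb2 and Itgb7, to leave vessels and to bind other cells.

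In skin labelled K5-Cre most tested stromal members were lower and most tested leukocyte and platelet members higher, while epidermal members went both ways. The 6 tested laminin chains of the stroma, both nidogens and perlecan were lower, by 9.47-fold at most, and so were the 3 genes of the Fraser complex, which anchors epidermis to dermis, by 11.4-fold at most. The keratinocyte integrins Itga3, Itgb6 and Itgb4 were higher, up to 3.61-fold for Itga3. Itgb8 was lower, and Itga6, Itgb1, Itga2 and Itga9 did not pass. Of 8 tested leukocyte and platelet integrins 6 were higher, by up to 27.0-fold for Itgam, while Itga4 was lower and Itgad did not pass. Of the 47 genes, 41 were tested, and 13 rose, 19 fell and 9 did not pass an adjusted p of 0.05 (limma, Benjamini-Hochberg over all 11255 tested genes, 2 arrays against 2). Over all tested genes 64% passed, 25.2% higher and 38.8% lower, so that passing the test was common in these arrays and sets no member apart. For 38 of the 41 members the values of the groups were fully apart, as for 86% of all tested genes. Past the threshold and at least 2-fold, 9 members were higher and 14 lower, where these shares over all tested genes were 10.7% and 14.9%. The median log2 difference was −0.27 over the tested members and −0.14 over all tested genes. It was 0.12 for epidermal, −1.22 for stromal and 1.28 for leukocyte and platelet members. Quantile normalization moved the median of all tested genes to −0.02, and differences are given on the deposited scale.

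**Figure D1:**
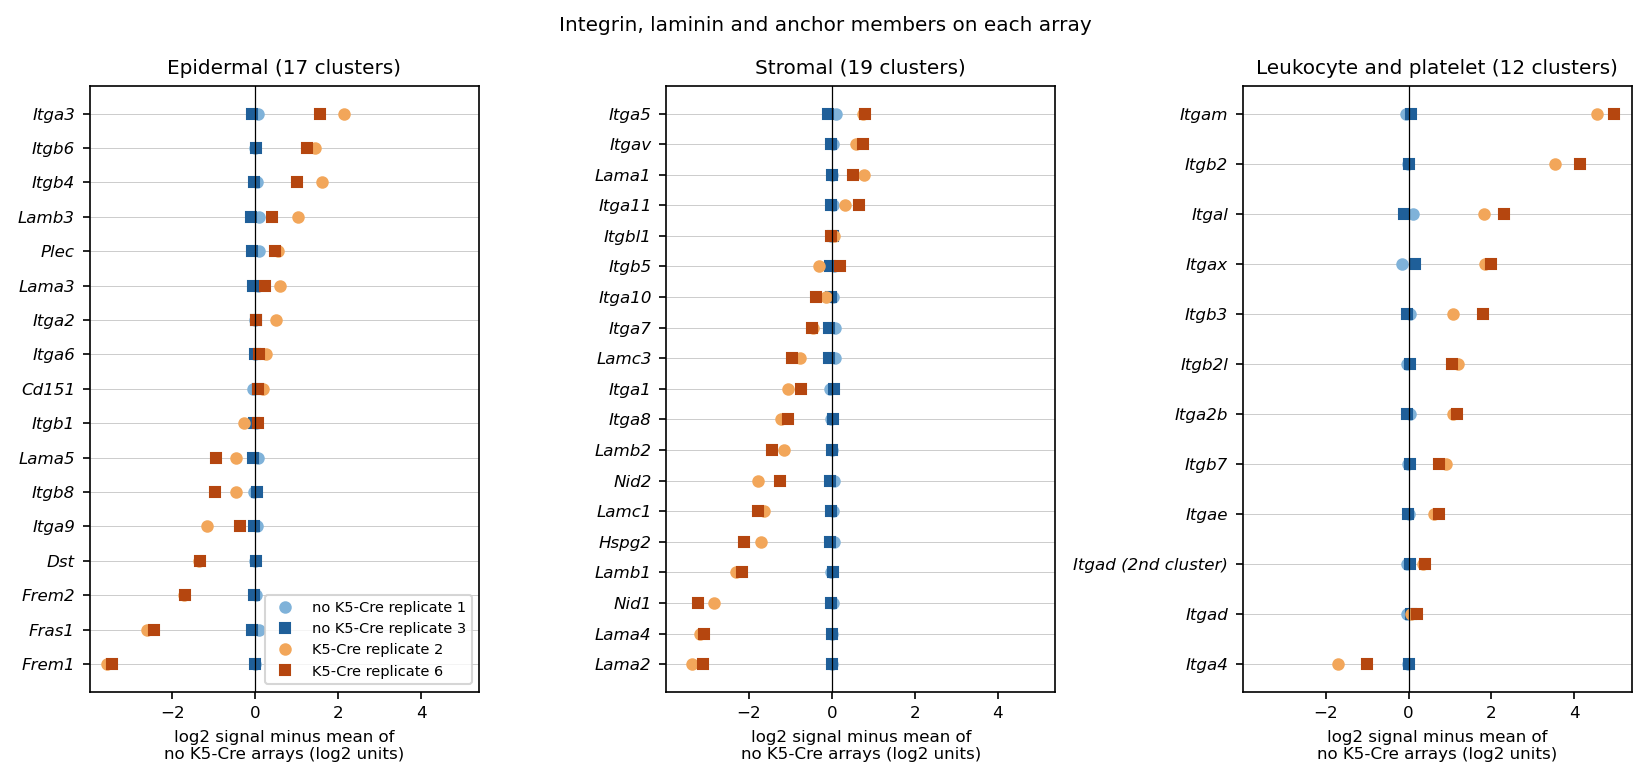
Each row is 1 transcript cluster and each point 1 array, as log2 signal relative to the average no K5-Cre value, for epidermal (left), stromal (middle) and leukocyte and platelet members (right). The no K5-Cre arrays lie close to 0 in every row, while the K5-Cre arrays lie from −3.52 on average for Frem1 to 4.75 for Itgam.

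The filter kept genes with a mean log2 signal over 7.61, which was the median cluster. Itgb2l (7.66), Itgad (7.68) and Itga10 (7.70) lay just inside, and Itga11 (7.50), Itgax (7.37) and Itgb7 (7.28) just outside. Lama1 (7.18), Itgae (6.78) and Itgbl1 (6.29) lay further below that level. The filter lets in a gene that is dim in 1 group when it is bright in the other, which partly sets the counts above. Itgam (7.03), Itgb2 (7.12), Itgal (7.12), Itgb2l (7.10) and Itga2b (7.59) had no K5-Cre means under the filter level. They were tested only through their K5-Cre values, so the leukocyte and platelet count and median depend on the filter. Without the filter 9 of 11 members of this class were higher and 1 lower (median 1.12), beside 6145 and 5567 of all 19938 genes. In the other direction, Frem1 (6.63), Fras1 (7.04), Itga8 (7.24), Lama2 (7.44), Lama4 (7.55) and Itga10 (7.57) had K5-Cre means under the filter level. These genes were tested only through their no K5-Cre values, so the counts of falls depend on the filter too. Without it 12 of 19 stromal members were lower and 4 higher (median −0.91). The 6 members outside the filter are given below from a second fit over all 21789 named clusters. In that fit 59.1% of clusters passed, 30.1% as higher and 29% as lower. Differences are printed ± their moderated SE from limma, at 2 arrays a group. The exact two-sided permutation test has 0.333 as its smallest p at this size, and limma's variance model therefore carries the p-values.

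**Figure D2:**
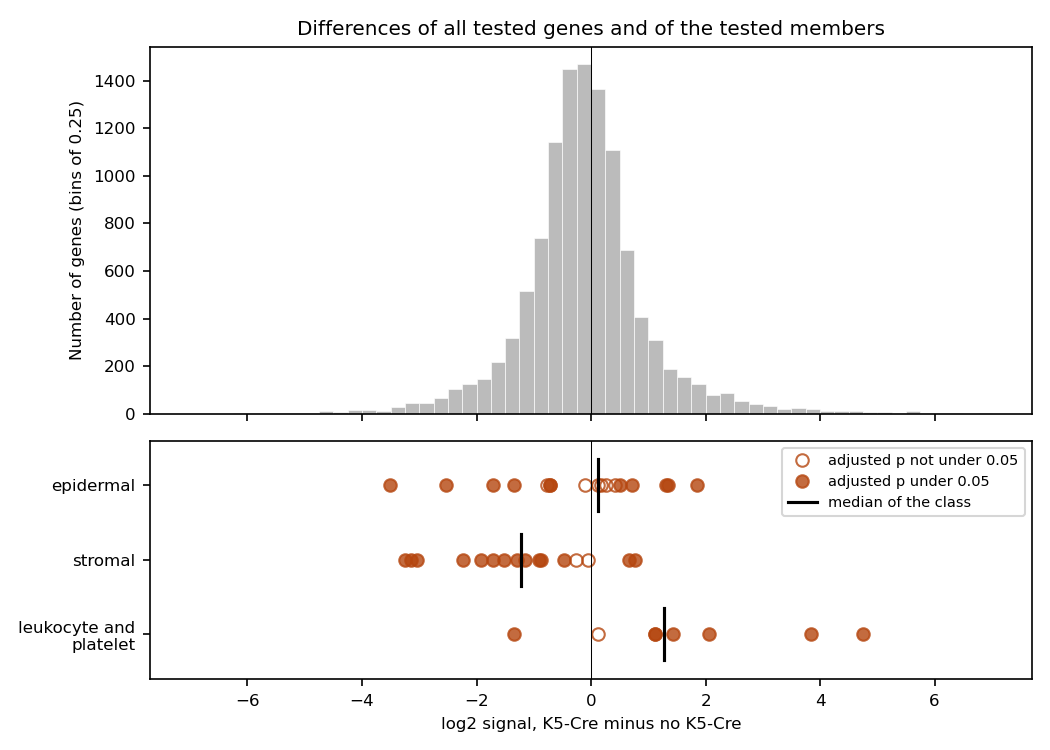
The upper panel counts the 11255 tested genes by their log2 difference (K5-Cre minus no K5-Cre) in bins of 0.25, and the lower panel shows the 41 tested members by class on the same axis, with the class median as a bar. Stromal members have their median at −1.22 and leukocyte and platelet members at 1.28, while epidermal members spread to both sides of 0.

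The targeted gene does not check the labels. The Cflar cluster with the highest mean had a log2 signal of 8.97 and 8.77 in no K5-Cre replicates 1 and 3 and of 9.69 and 9.71 in K5-Cre replicates 2 and 6, higher and not lower in the group labelled as deleted. The floxed exon is not named in the labels, a cluster averages over the transcript, and skin also contains cells that lack keratin 5. "K5-Cre" below therefore stands for that label. As skin should, all 4 arrays had high signal of the basal keratins Krt5 (12.80 to 13.20) and Krt14 (12.08 to 13.51).

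Upstream sequences are shown for members that stand for the main directions: Itgam and its neighbour on chromosome 7, Itgax, which were higher, Itga3, the most raised keratinocyte integrin, and Frem2 and Lama2, which were lower. Each is the stretch of 250 bases before the start of the gene in RefSeq's table for GRCm38.p6, read 5′ to 3′ on the gene's strand, at the most upstream start where the table has several. Capitals mark GAGGAA, the core of the site bound by the myeloid factor PU.1 and other ETS proteins, TGANTCA, the AP-1 motif, and GGGCGG, the GC box, each on either strand.
Itgam, chr7:128062390-128062639, plus strand: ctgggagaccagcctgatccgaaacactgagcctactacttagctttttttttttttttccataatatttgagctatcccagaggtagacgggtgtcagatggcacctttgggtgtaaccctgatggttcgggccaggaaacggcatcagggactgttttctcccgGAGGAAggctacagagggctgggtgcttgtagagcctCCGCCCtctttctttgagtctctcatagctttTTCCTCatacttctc
Itgax, chr7:128129300-128129549, plus strand: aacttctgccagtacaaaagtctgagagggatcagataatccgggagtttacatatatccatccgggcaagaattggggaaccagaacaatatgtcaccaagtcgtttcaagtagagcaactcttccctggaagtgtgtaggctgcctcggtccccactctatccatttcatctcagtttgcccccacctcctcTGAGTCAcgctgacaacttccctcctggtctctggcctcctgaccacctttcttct
Itga3, chr11:95076715-95076964, minus strand: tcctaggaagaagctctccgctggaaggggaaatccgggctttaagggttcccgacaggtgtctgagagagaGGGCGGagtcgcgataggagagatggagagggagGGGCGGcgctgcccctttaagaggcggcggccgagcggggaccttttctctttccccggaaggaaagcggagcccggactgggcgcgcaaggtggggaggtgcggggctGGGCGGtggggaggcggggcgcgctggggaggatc
Frem2, chr3:53657356-53657605, minus strand: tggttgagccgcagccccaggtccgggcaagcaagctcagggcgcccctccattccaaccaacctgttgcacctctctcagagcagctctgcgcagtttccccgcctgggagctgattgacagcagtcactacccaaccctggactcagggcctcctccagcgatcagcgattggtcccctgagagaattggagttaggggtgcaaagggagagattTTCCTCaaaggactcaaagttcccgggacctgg
Lama2, chr10:27616943-27617192, minus strand: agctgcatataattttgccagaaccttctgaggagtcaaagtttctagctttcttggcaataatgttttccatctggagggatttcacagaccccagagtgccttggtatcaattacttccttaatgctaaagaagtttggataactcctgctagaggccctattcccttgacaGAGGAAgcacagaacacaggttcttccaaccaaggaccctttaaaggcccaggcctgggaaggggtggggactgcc

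The Itgam stretch held GAGGAA 2 times and a GC box 1 time, that of Itgax the AP-1 motif 1 time and that of Itga3 the GC box 3 times. Frem2 and Lama2 each had GAGGAA 1 time. Of 32851 promoters in the table, 23.3% held GAGGAA, 6.75% TGANTCA and 32.7% GGGCGG in the same window. The table has 37 promoters of 31 of the 47 members, of which 18, 1 and 14 held these motifs. GAGGAA occurred in 9 of 14 promoters of members that rose in 8 of 15 of members that fell and in 1 of 8 of members that did not pass. These matches describe letters and do not show that a factor binds.

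Within the hemidesmosome, the beta chain passed the test as higher and the alpha chain did not pass. The 2 chains were not tested against each other. Itgb4 had a log2 signal of 9.52 and 9.43 in no K5-Cre replicates 1 and 3 and of 11.09 and 10.48 in K5-Cre replicates 2 and 6. Both K5-Cre arrays lay above both others, and the rise was 1.31 ± 0.22 (2.47-fold, limma adjusted p = 0.00513). Itga6, its partner, read 11.03 and 11.03 without K5-Cre and 11.28 and 11.12 with it, a difference of 0.17 ± 0.10 that did not pass (limma adjusted p = 0.192). The groups did not overlap for Itga6 either, but the gap between them was narrower than that between the K5-Cre arrays, and Itga6 passed, at 0.25, when K5-Cre replicate 6 was dropped.

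The cytoplasmic linkers went opposite ways. Plec, which encodes plectin, read 9.87 and 9.68 without K5-Cre and 10.33 and 10.25 with it. It rose by 0.51 ± 0.12 (limma adjusted p = 0.0139), a call that ended when no K5-Cre replicate 1 (adjusted p = 0.1) or 3 (adjusted p = 0.207) was dropped. Dst, which encodes dystonin in epithelial, neuronal and muscle forms that the cluster does not separate, read 9.96 and 9.99 without K5-Cre and 8.61 and 8.64 with it. The arrays of each group were close together, and the fall was 1.35 ± 0.10 (2.55-fold, limma adjusted p = 0.000412). Dst fell in arrays where all 5 skeletal muscle markers also fell, their summed linear signal being 22955 to 26887 without K5-Cre and 1136 to 1496 with it, and their part in the value was not tested. Cd151, a tetraspanin that binds laminin receptors, read 9.41 and 9.54 without and 9.66 and 9.53 with K5-Cre, with overlapping groups and a difference of 0.12 ± 0.11 (limma adjusted p = 0.4).

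Among the other keratinocyte integrins, Itga3 and Itgb6 rose and Itgb8 fell. Itga3, the alpha chain of a laminin receptor outside hemidesmosomes, read 8.54 and 8.39 without K5-Cre and 10.61 and 10.02 with it. The groups lay far apart, with a rise of 1.85 ± 0.21 (3.61-fold, limma adjusted p = 0.00163). Itgb6, a beta chain of epithelia that pairs with Itgav and activates TGF-beta, read 7.85 and 7.87 without K5-Cre and 9.29 and 9.10 with it, and rose by 1.34 ± 0.11 (limma adjusted p = 0.000606). Itgb8, another TGF-beta activating partner of Itgav, read 8.28 and 8.37 without and 7.86 and 7.36 with K5-Cre. Its fall of 0.72 ± 0.18 (limma adjusted p = 0.0195) was not called when no K5-Cre replicate 1 (adjusted p = 0.0654) or 3 (adjusted p = 0.0871) was dropped, or under quantile normalization (adjusted p = 0.051). Without K5-Cre replicate 6 the difference was −0.47.

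Itgb1, the common beta chain of most matrix receptors, was close between the groups, with 10.94 and 10.89 without K5-Cre and 10.65 and 10.97 with it. The K5-Cre arrays enclosed the others, and the difference was −0.10 ± 0.14 (limma adjusted p = 0.536). The collagen receptor chain Itga2 differed by 0.26 ± 0.18, and K5-Cre replicate 6 (9.50) was level with no K5-Cre replicate 3 (9.50) while replicate 2 read 9.98. Itga2 passed, at 0.50, when K5-Cre replicate 6 was dropped and came to 0.020 without replicate 2. Itga9, a receptor chain for tenascin and other ligands, read 9.75 and 9.69 without K5-Cre, 8.55 in K5-Cre replicate 2 and 9.34 in replicate 6, and its difference of −0.77 ± 0.27 did not pass (limma adjusted p = 0.0539). It passed without the filter (adjusted p = 0.0452) and with either K5-Cre array left out, at −0.38 without replicate 2 and −1.17 without replicate 6.

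Of the 3 laminin chains of the epidermal basement membrane, Lamb3 rose, Lama5 fell and Lama3 did not pass. Lamb3, the beta chain of the hemidesmosomal laminin, read 8.75 and 8.55 without K5-Cre and 9.68 and 9.05 with it, and rose by 0.72 ± 0.23 (limma adjusted p = 0.0422). It no longer passed when no K5-Cre replicate 1 (adjusted p = 0.102) or replicate 3 (adjusted p = 0.183) was dropped, and the difference was 0.40 without K5-Cre replicate 2. Lama3, the alpha chain of the same trimer, read 9.19 and 9.09 without and 9.73 and 9.37 with K5-Cre. Its difference of 0.41 ± 0.15 did not pass (limma adjusted p = 0.0631), although the groups did not overlap, and it passed after quantile normalization (adjusted p = 0.0318) and median scaling of the arrays (adjusted p = 0.0448). Lama3 also passed with a K5-Cre array left out, at 0.23 without replicate 2 and 0.59 without replicate 6. Lama5, the alpha chain of the main laminin between the hemidesmosomes and in hair follicles, read 9.59 and 9.45 without and 9.04 and 8.58 with K5-Cre and fell by 0.71 ± 0.18 (limma adjusted p = 0.0212). Leaving out no K5-Cre replicate 1 (adjusted p = 0.127) or replicate 3 (adjusted p = 0.0798) ended that call.

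The Fraser complex, formed by Fras1, Frem1 and Frem2 on the dermal side of the basement membrane, was lower in all 3 genes. All 6 fibroblast markers fell in the same arrays, with a mean log2 difference of −2.99, and their part in these falls, Frem1 being made mainly by dermal cells, was not tested. Frem1 read 10.14 and 10.14 without K5-Cre and 6.57 and 6.68 with it, and fell by 3.52 ± 0.10 (11.4-fold, limma adjusted p = 5.95e-05), the largest fall among the members. It lies on chromosome 4 from 82543824 to 82698071 (mm9, minus strand). Only 1.32% of tested genes passed the test at least 8-fold lower, and 4 members were among them, Frem1, Lama2, Lama4 and Nid1. For Frem1, Lama2 and Lama4, and also for Fras1, both K5-Cre values lay under the filter level of 7.61. The height of that level over background was not measured, so the folds of these genes are only those of the deposited values. Fras1 (chromosome 5, 96802974 to 97213747, mm9, plus strand) read 9.65 and 9.50 without K5-Cre and 6.96 and 7.12 with it, a decrease of 5.78-fold (limma adjusted p = 0.000119). Frem2 read 9.72 and 9.67 without and 7.97 and 8.004 with K5-Cre and decreased 3.26-fold (limma adjusted p = 0.000211). For all 3 the groups lay well apart, and leaving out any single array kept the falls and their calls. In the authors' deposited table, which holds other summary values of the same arrays, K5-Cre replicates 2 and 6 lay 9.26-fold and 9.32-fold below no K5-Cre replicate 1 for Frem1 and 5.67-fold and 5.19-fold for Fras1.

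In all, 5 of 17 epidermal members rose, 6 fell and 6 did not pass. Over all tested genes 25.2% rose and 38.8% fell, so passing the test sets this class apart in neither direction. Of the 5 basal keratinocyte markers, Krt5, Krt14 and Col17a1 rose, Krt15 fell and Trp63 did not pass. Their summed linear signal was 16001 to 16168 without K5-Cre and 21607 to 24404 with it. The sum weights the bright Krt5 and Krt14, and the mean log2 difference of the same 5 markers was −0.09. Of 5 suprabasal markers 1 rose, 1 fell and 3 did not pass. The part of keratinocyte number in the epidermal values was not tested. In whole skin, fewer cells of a type and less RNA per cell cannot be told apart, and this holds for each class here.

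**Figure D3:**
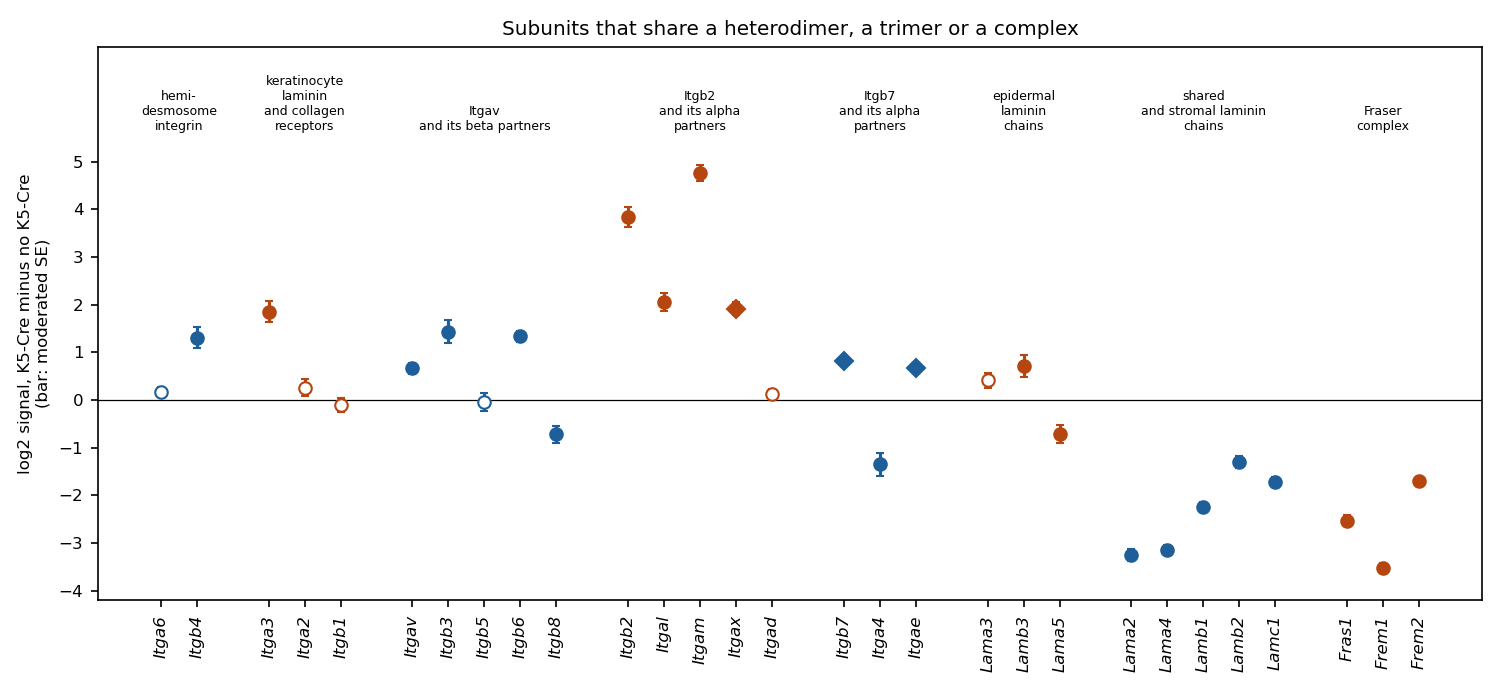
Points are log2 differences (K5-Cre minus no K5-Cre) with the moderated SE as bars, for members grouped by the complex they form, with group names above and colours alternating between groups. Open points did not pass an adjusted p of 0.05, and diamonds mark members outside the filter, taken from the fit over all named clusters. Partners have unlike estimates within several groups: Itgb4 lies at 1.31 and Itga6 at 0.17, and the beta partners of Itgav range from −0.72 to 1.44. Partners were not tested against each other.

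Stromal laminin chains and the proteins that join them were lower throughout the tested members. Lama2, the alpha chain of muscle and nerve basement membranes, read 10.68 and 10.68 without K5-Cre and 7.30 and 7.57 with it. It fell by 3.24 ± 0.13 (9.47-fold, limma adjusted p = 9.42e-05) and lies on chromosome 10 from 26701091 to 27336748 (mm9, minus strand). Lama4, the alpha chain of vessel and fat basement membranes (chromosome 10, 38685383 to 38829989, mm9, plus strand), read 10.69 and 10.69 without and 7.51 and 7.59 with K5-Cre, 8.80-fold lower (limma adjusted p = 7e-05). Both genes were level between the no K5-Cre arrays and far below in both K5-Cre arrays.

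The beta and gamma chains that these alpha chains share fell less on the log2 scale. Lamb1 (chromosome 12, 31950159 to 32014509, mm9, plus strand) read 10.55 and 10.58 without and 8.26 and 8.39 with K5-Cre, 4.72-fold lower (limma adjusted p = 0.000146). Lamc1, the gamma chain of most laminins, read 11.08 and 11.02 without and 9.41 and 9.27 with K5-Cre, 3.27-fold lower (limma adjusted p = 0.000272). Lamb2, a beta chain of muscle and vessels, read 10.39 and 10.41 without and 9.24 and 8.96 with K5-Cre, 2.46-fold lower (limma adjusted p = 0.00106). Whether these falls differ from those of the alpha chains was not tested. Lamc3 decreased by 0.87 ± 0.11, from 8.96 and 8.83 to 8.11 and 7.93. Lama1, an alpha chain best known from embryonic basement membranes, was outside the filter, with 6.85 and 6.87 without and 7.64 and 7.37 with K5-Cre. In the fit over all named clusters it rose by 0.64 ± 0.12 (adjusted p = 0.00705), the only laminin chain of the stromal class to do so, but did not pass when no K5-Cre replicate 1 (adjusted p = 0.0631) or 3 (adjusted p = 0.0553) was dropped.

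Nid1, encoding nidogen-1 (chromosome 13, 13529958 to 13604531, mm9, plus strand), read 11.93 and 11.87 without K5-Cre and 9.05 and 8.68 with it. It fell by 3.03 ± 0.15 (8.19-fold, limma adjusted p = 0.000161). Its relative Nid2 read 10.03 and 9.92 without and 8.19 and 8.72 with K5-Cre, and it fell by 1.52 ± 0.20 (limma adjusted p = 0.00236). Hspg2, encoding the proteoglycan perlecan (chromosome 4, 137024736 to 137126544, mm9, plus strand), read 11.38 and 11.27 without and 9.60 and 9.21 with K5-Cre and fell by 1.92 ± 0.16 (limma adjusted p = 0.00061). No group overlapped for these genes, but the K5-Cre arrays lay 0.53 apart for Nid2, with replicate 6 higher, and 0.37 and 0.39 apart for Nid1 and Hspg2, with replicate 2 higher.

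Stromal integrins went both ways. Itga8, a chain of smooth muscle and other mesenchymal cells, fell by 1.15 ± 0.10, from 8.35 and 8.41 to 7.15 and 7.32 (limma adjusted p = 0.000699). The collagen receptor chain Itga1 fell by 0.91 ± 0.14, and the muscle laminin receptor chain Itga7 fell by 0.47 ± 0.10. Itga7 no longer passed when no K5-Cre replicate 1 (adjusted p = 0.149) or replicate 3 (adjusted p = 0.0659) was dropped. Itga5, the alpha chain of the fibronectin receptor, rose by 0.77 ± 0.11, from 10.15 and 9.97 to 10.80 and 10.85 (limma adjusted p = 0.00325), which did not hold when no K5-Cre replicate 3 was dropped (adjusted p = 0.0685). Itgav, partner of several beta chains, read 10.08 and 10.05 without and 10.65 and 10.81 with K5-Cre and rose by 0.66 ± 0.11 (limma adjusted p = 0.00485). Dropping no K5-Cre replicate 1 (adjusted p = 0.0775) or replicate 3 (adjusted p = 0.0844) ended the call.

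Itgb5, a vitronectin receptor chain, read 10.63 and 10.52 without and 10.27 and 10.78 with K5-Cre, so that the K5-Cre arrays enclosed the others (−0.05 ± 0.19, limma adjusted p = 0.833). The cartilage collagen receptor chain Itga10 differed by −0.27 ± 0.12 and did not pass, but it passed, at −0.40, when K5-Cre replicate 2 was dropped. Outside the filter, the fibroblast collagen receptor chain Itga11 rose by 0.49 ± 0.14 in the fit over all named clusters (adjusted p = 0.0258), which did not hold after dropping no K5-Cre replicate 1 (adjusted p = 0.122) or 3 (adjusted p = 0.143) and came to 0.32 without K5-Cre replicate 6. Itgbl1, an integrin-like secreted protein, differed by 0.02 ± 0.09.

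Over all tested genes 25.2% rose and 38.8% fell. Of 16 tested stromal members 2 rose, 12 fell and 2 did not pass. All 6 fibroblast markers fell in the same arrays, from a summed linear signal of 36509 to 38443 without K5-Cre to 5274 to 5462 with it. Of 5 endothelial markers 4 fell and Pecam1, also made by platelets and leukocytes, did not pass (6237 to 6671 against 1622 to 2043 in sum), and all 5 adipocyte markers fell (7552 to 8105 against 1301 to 1311). Of 5 markers of smooth muscle and pericytes 2 fell and 3 did not pass. Their sum was 6222 to 6774 without K5-Cre, 5283 in K5-Cre replicate 2 and 1425 in replicate 6. All 5 skeletal muscle markers fell, with a mean log2 difference of −4.37, the largest fall of any marker list, beside the muscle chains Lama2, Lamb2 and Itga7. The part of these cells in the stromal values was not tested.

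**Figure D4:**
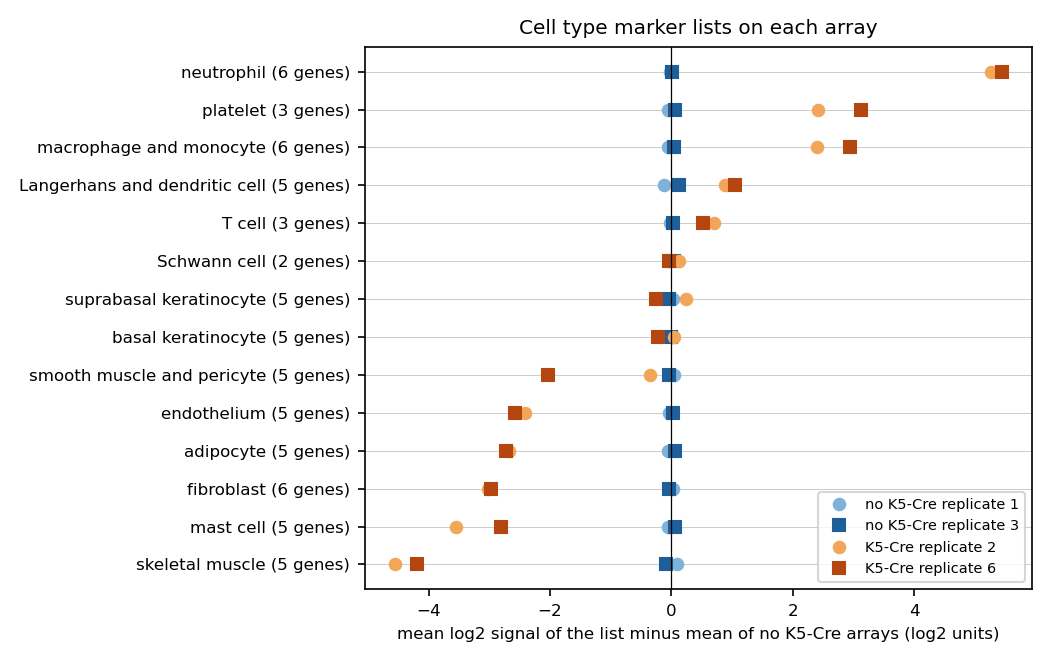
Each point is the mean log2 signal of a marker list on 1 array, relative to the average no K5-Cre value, with the number of genes in brackets. Fibroblast, fat, endothelial, mast cell and skeletal muscle lists are lower in both K5-Cre arrays, neutrophil, macrophage and platelet lists are higher, and the basal keratinocyte list differs by −0.09 between the group means.

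Over all tested genes 25.2% rose and 38.8% fell. Of 8 tested leukocyte and platelet members 6 rose, Itga4 fell and Itgad did not pass. The largest rises were those of the pair that forms the myeloid receptor for complement fragments and ICAM-1. Itgam, its alpha chain (chromosome 7, 135206193 to 135270630, mm9, plus strand), read 6.98 and 7.09 without K5-Cre and 11.57 and 11.99 with it. It rose by 4.75 ± 0.17 (27.0-fold, limma adjusted p = 7.92e-05). Itgb2, the beta chain (chromosome 10, 76993093 to 77028419, mm9, plus strand), read 7.11 and 7.12 without and 10.66 and 11.25 with K5-Cre, a rise of 3.84 ± 0.21 (14.3-fold, limma adjusted p = 0.000196). Both passed at least 8-fold higher, as 1.5% of tested genes did. For both genes all no K5-Cre values lay under the filter level of 7.61, whose height over background was not measured, so the folds are only those of the deposited values. The authors' deposited table puts Itgam 21.3-fold and 26.8-fold, and Itgb2 10.3-fold and 15.5-fold, above no K5-Cre replicate 1 in K5-Cre replicates 2 and 6.

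The other alpha partners of Itgb2 had smaller differences, which were not tested against that of Itgam. Itgal, the alpha chain of lymphocytes and other leukocytes that binds ICAM proteins, read 7.22 and 7.02 without and 8.94 and 9.42 with K5-Cre and rose 4.18-fold (limma adjusted p = 0.000783). Itgax, a chain of dendritic cells and macrophages, was outside the filter, with 6.26 and 6.56 without and 8.25 and 8.41 with K5-Cre, and rose by 1.92 ± 0.14 in the fit over all named clusters (adjusted p = 0.000223). Itgad, which follows Itgam and Itgax on chromosome 7, differed by 0.13 ± 0.10 and did not pass (limma adjusted p = 0.286). Its second cluster, at 6.18 and 6.24 without and 6.55 and 6.61 with K5-Cre, rose by 0.37 ± 0.09 in the fit over all named clusters (adjusted p = 0.0177), but not when no K5-Cre replicate 1 (adjusted p = 0.131) or 3 (adjusted p = 0.0916) was dropped, or under quantile normalization (adjusted p = 0.0605). Itgb2l, a relative of Itgb2 made by mouse neutrophils, rose from 7.06 and 7.14 to 8.30 and 8.14, which is 2.18-fold (limma adjusted p = 0.000704).

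Lymphocyte homing chains did not move together. Itga4, made by lymphocytes, monocytes, mast cells and others, read 9.45 and 9.50 without and 7.78 and 8.48 with K5-Cre. It fell by 1.34 ± 0.24 (2.54-fold, limma adjusted p = 0.00677) and was the only leukocyte member to fall. Its partner Itgb7 was outside the filter and rose in the fit over all named clusters by 0.82 ± 0.11, from 6.84 and 6.89 to 7.78 and 7.60 (adjusted p = 0.0018). Itgae, the other partner of Itgb7, which binds E-cadherin on epithelia, rose in that fit by 0.68 ± 0.09, from 6.44 and 6.43 to 7.06 and 7.17 (adjusted p = 0.00245). All 5 mast cell markers fell in these arrays. Their summed signal was 14711 to 15505 without K5-Cre, 1054 in K5-Cre replicate 2 and 2181 in replicate 6. The part of mast cells in the Itga4 value was not tested. Of the T cell markers, 3 had a cluster and none was inside the filter (253 to 267 against 377 to 438 in sum).

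The platelet receptor chains rose. Itga2b, the platelet alpha chain, read 7.62 and 7.55 without and 8.67 and 8.75 with K5-Cre and rose by 1.12 ± 0.09 (limma adjusted p = 0.000613). Itgb3, its partner, which also pairs with Itgav on vessels and macrophages, read 8.90 and 8.81 without and 9.93 and 10.65 with K5-Cre and rose by 1.44 ± 0.25 (limma adjusted p = 0.00605). The 3 platelet markers with a cluster, Pf4, Gp9 and Ppbp, rose too (1604 to 1671 against 7096 to 12000 in sum).

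Neutrophil markers had a summed linear signal of 433 to 435 without K5-Cre and 23098 to 24404 with it, and all 5 that were tested rose. Their no K5-Cre means, from 5.58 for Cxcr2 to 7.18 for S100a9, lay under the filter level of 7.61. These 5 were tested only through their K5-Cre values, so their count was largely set by the filter. Markers of macrophages and monocytes had sums of 3465 to 3616 and 16621 to 25002, and all 6 rose. Among all tested genes 25.2% rose. Of 3 tested markers of Langerhans and dendritic cells 2 rose and 1 did not pass, and neither of 2 Schwann cell markers passed. The share of each cell type in the integrin values was not tested.

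The K5-Cre arrays also differed from each other, and the classes were not tested against one another in this. Of 17 epidermal clusters 11 were higher in replicate 2, and the median of replicate 6 minus replicate 2 was −0.16, but all 3 Fraser genes were higher in replicate 6. Of 19 stromal clusters 9 were higher in replicate 2 and 10 in replicate 6, with a median of 0.04. Of 12 leukocyte and platelet clusters 10 were higher in replicate 6, with a median of 0.15. Over all tested genes 5024 were higher in replicate 2 and 6230 in replicate 6, with a median of 0.03. The widest gaps among the members were those of Itga9 (0.79), Itgb3 (0.72) and Itga4 (0.70), all with replicate 6 higher, and of Lamb3 (−0.63) and Itgb4 (−0.61), with replicate 2 higher. The macrophage list was also higher in replicate 6, and both keratinocyte lists in replicate 2.

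Other genes of integrin signalling and of the basement membrane were set beside the members. Over all tested genes 25.2% rose and 38.8% fell, which is the background for the counts of each list. Of 29 tested genes of integrin activation and the adhesion complex 9 rose, 8 fell and 12 did not pass, with a median log2 difference of −0.02. Among them, Tns4, a tensin of epithelial cells, rose by 2.58 ± 0.23, the focal adhesion kinase relative Ptk2b by 2.18 ± 0.11 and Fermt3, the kindlin of blood cells, by 2.12 ± 0.22. Fermt2, the kindlin of mesenchymal cells, fell by 2.31 ± 0.12, the tensin gene Tns2 fell by 1.79 ± 0.10 and Tln2, a talin of muscle and brain, fell by 1.49 ± 0.10. Fermt1, the epidermal kindlin, differed by −0.02 and did not pass, and it is named here after its value was seen.

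Of 17 tested integrin ligands 10 rose, 5 fell and 2 did not pass (median 0.98). The matricellular genes Ccn1 and Thbs1 rose by 1.97 ± 0.10 and 1.83 ± 0.11, and the tenascin gene Tnn by 1.55 ± 0.46. For Tnn the rise was 0.84 without K5-Cre replicate 6, and it did not pass when no K5-Cre replicate 1 (adjusted p = 0.07) or 3 (adjusted p = 0.0963) was dropped. Npnt, encoding nephronectin, the ligand of the receptor that contains Itga8, fell by 2.59 ± 0.13. The junctional adhesion molecule gene Jam2 fell by 2.42 ± 0.19, and Tgfb3, whose latent form is a ligand of Itgav receptors, fell by 1.16 ± 0.19.

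Of 23 tested other genes of basement membranes and laminin relatives 4 rose, 14 fell and 5 did not pass (median −1.07). Egfl6, made by fibroblasts and follicle cells and deposited around hair follicles, fell by 4.41 ± 0.10, Postn, encoding periostin, fell by 3.16 ± 0.17 and Pxdn, encoding peroxidasin, which crosslinks collagen, fell by 1.72 ± 0.10. Tinagl1, a laminin-binding matrix gene, rose by 1.57 ± 0.11, Megf9 by 0.73 ± 0.22, and Grip1, which is needed to bring the Fraser proteins to the cell surface, by 0.87 ± 0.10. For Megf9 the rise was 0.43 without K5-Cre replicate 2, and it did not pass when no K5-Cre replicate 1 (adjusted p = 0.14) or 3 (adjusted p = 0.128) was dropped. Grip1 and the 3 Fraser genes thus changed in opposite directions. The adjusted p of the 18 genes named from these lists was between 5.39e-05 and 0.0338 (limma).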

How the data were processed

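Total RNA from skin was measured on 4 arrays in 2 groups of 2. The authors' deposited series table holds log2 values for 35557 transcript clusters, used as deposited, since their summarisation and normalization are not given in the sources used here. A second deposited table of 1396 clusters, 9 of them members, holds linear intensity per array, a baseline-shifted log2 value, and each array's ratio to replicate 1 without K5-Cre, both as a log2 value and as a fold size. Per the file headers it keeps clusters above the 20th percentile that differ at least 4-fold on at least 1 array, on build mm9.

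The platform annotation gives 1 symbol for 21789 clusters, several for 1621 and none for 12147. Of the first, 21698 were matched to RefSeq through Entrez identifiers for current symbols. The cluster with the highest mean stood for a gene, and genes above the median of the cluster means (7.61) were tested with limma 3.58.1 in R 4.3.3 (lmFit, eBayes with a variance trend, two-sided), 5.01 moderated degrees of freedom and a median SE of 0.12. The number of arrays limits the precision. On simulated data for this comparison, over 11255 genes, 96% of genes changed 2-fold and 99% changed 4-fold were called. The simulated noise of all arrays came from the gaps between the no K5-Cre arrays alone. The SD of the difference was 0.118 for that pair and 0.357 for the K5-Cre pair. These shares therefore hold for arrays quieter than the K5-Cre arrays and do not give the recovery in the real data. The labels give no batch, and the groups share no replicate number. The alternatives were quantile and median scaling, no and a stricter filter, no variance trend, the mean of clusters, leaving out each array, and, added after seeing the data, the authors' linear signal and the same alternatives for the genes named from the other lists. Every member could be named, with values in every array for those called and at least 2-fold apart and for 18 listed genes. Of the other lists, the 3 largest rises and falls past the threshold were named. The members and lists were chosen with earlier results of these data known. Motifs were searched with Python 3.11.15.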

Additional observations from a re-analysis of the deposited data

How the results depend on the processing

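Of 38 clusters called, 28 kept direction and call under every alternative that gave a value. The other 10 lost the call without a no K5-Cre array or under quantile normalization, and none changed direction. Over all genes, 1463 to 3716 were higher and 2368 to 5454 lower when an array was left out, and 6145 were higher without the filter. With an array left out, 9 to 16 members were higher and 16 to 22 lower, 3 to 8 and 4 to 8 of the epidermal class, and 0 to 3 and 11 to 13 of the stromal class. Leaving out an array gave 8 to 13 higher and 4 to 13 lower genes of the adhesion complex, 2 to 4 higher genes of basement membranes and 3 to 6 lower ligands. Without the filter 4 stromal members were higher, and with the filter at the 60th percentile 3 ligands were lower. The sign changed for 3 members that did not pass. Leaving out an array in turn, Itgb1 ranged from −0.26 to 0.057, Itgb5 from −0.30 to 0.20 and Itgbl1 from −0.018 to 0.050, with the K5-Cre arrays giving both ends. Itgb1 and Itgb5 passed at the lower end, without K5-Cre replicate 6, and Itgb5 also at the upper, without replicate 2. Median scaling of the arrays moved Itgb5 to 0.022 and quantile normalization moved Itgbl1 to −0.11. Outside these, 5 members that did not pass came past the threshold under at least 1 alternative, most often with a K5-Cre array left out, which leaves the close no K5-Cre pair to set the spread. The authors' linear signal kept the direction of all 9 members and gave −2.32, −3.18 and −2.93 for Fras1, Frem1 and Lama4. It was deposited only for clusters that differ at least 4-fold on at least 1 of these same arrays. A change of direction was therefore hardly possible, and the kept direction is no separate check. A fit without 1 array assumes that the lone array of its group varies like those of the other group. The cause of the other changes was not tested. Low signals were not set against background. No paired analysis was possible because the groups share no replicate number.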
